A study of Mus with 50 samples.

Results

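Cholangiocytes, the epithelial cells that line bile ducts, make up a small share of liver cells, and their genes were followed here across the livers of 50 female mice. The set holds 9 listed genes: Krt19, Krt7, Epcam, Sox9, Cldn7, Spp1, Cftr, Muc1 and Cd24a. Each gene was read from the probe set with the highest median among those annotated to that symbol alone, which gave a value for 8 of the 9 genes, out of 22180 named genes in all. Spp1 (osteopontin) was not analysed here.

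The mice came from a C57xFVB backcross and carried the MMTV-Neu transgene, and the labels give breast cancer as their comorbidity. The promoter of this transgene, from the mouse mammary tumour virus, is active mainly in mammary epithelium, and Neu is the rat form of Erbb2. According to the study's design the livers came from animals at the extremes of an ageing grade, but no label gives the grade of an animal, so all 50 livers form 1 group with 1 array each and no control group. The samples are labelled as liver tissue, although their extraction text mentions purified cell populations. Hepatocyte genes were high in every liver, with Alb (albumin) between 13.20 and 13.54 on the log2 signal scale. The mean of 8 hepatocyte markers was lowest in animal 64, at 10.41, and next lowest in animal 235, at 11.05.

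Bile ducts carry bile to the gut, and their cells modify it by secreting chloride, bicarbonate and water. In injured liver, ductular cells can multiply, which is called a ductular reaction, and some hepatocytes then take up ductular genes such as Sox9. Most of these genes are not particular to bile ducts: Epcam, Krt19, Krt7, Cldn7 and Muc1 are made by epithelia of the pancreas, gut, kidney or mammary gland, and Cd24a is also made by immature blood cells. In whole tissue, fewer cells of a type and less RNA per cell cannot be told apart.

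In most livers the keratins, junction proteins, channel and mucin of the set varied little, and the high values belonged to a few named animals. Values are log2 signals, on which 1 unit is a doubling, and each gene is given by its lowest, median and highest liver. Medians of Krt7, Sox9 and Cd24a were at or above 3.61, the median over all named genes, and those of the other 5 genes were below it. Levels of different genes are not set against each other, since probe sets differ in brightness.

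Krt19, a keratin of duct epithelium, had 2.88, 3.22 and 6.36, with animal 96 highest and animal 301 next at 4.33. Krt7, its partner keratin in ducts, had 3.36, 3.89 and 5.79, with animal 161 highest, then animal 96 at 4.67 and animal 84 at 4.48. For Krt19 the third liver, animal 284, was at 3.71, so that animals 96 and 301 stood apart from the other 48. For Krt7 only animal 161 stood apart, above a nearly continuous range that reached 4.67 in animal 96.

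Epcam, an adhesion protein of epithelial cells, had 2.75, 2.98 and 8.53. Its 4 highest livers were animals 161, 96, 301 and 84, at 8.53, 6.60, 5.81 and 4.54, and the fifth was animal 10 at 3.42. These 4 were picked as the highest, and the other 46 livers ran from 2.75 to 3.42. Cldn7, a claudin of tight and basolateral junctions, had 2.47, 2.77 and 4.93, and the same 4 animals led in the same order, at 4.93, 4.52, 3.32 and 3.25. The next liver was animal 179 at 3.13, so for Cldn7 only animals 161 and 96 were far from the remainder.

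Cftr, the chloride channel through which ducts secrete, had 2.14, 2.41 and 5.83, with animal 96 highest and animal 301 next at 3.54. Muc1, a membrane mucin of the apical surface, had 2.49, 2.90 and 5.68, with animal 96 highest and animal 161 next at 3.76. Both genes were thus far higher in animal 96 than in any other liver.

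Sox9, the transcription factor of duct cells and their progenitors, had 3.86, 5.12 and 7.08. Animals 161, 179 and 96 were highest, at 7.08, 6.69 and 6.47, and animal 229 followed at 5.86. Cd24a, a small surface glycoprotein, had 3.88, 5.01 and 10.98, with animal 64 highest and animals 10 and 257 next at 8.05 and 8.03. Cd24a alone was spread broadly over the livers: 13 of 50 were more than 1 unit above its median, against 1 to 4 of 50 for the other genes.

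**Figure D1:**
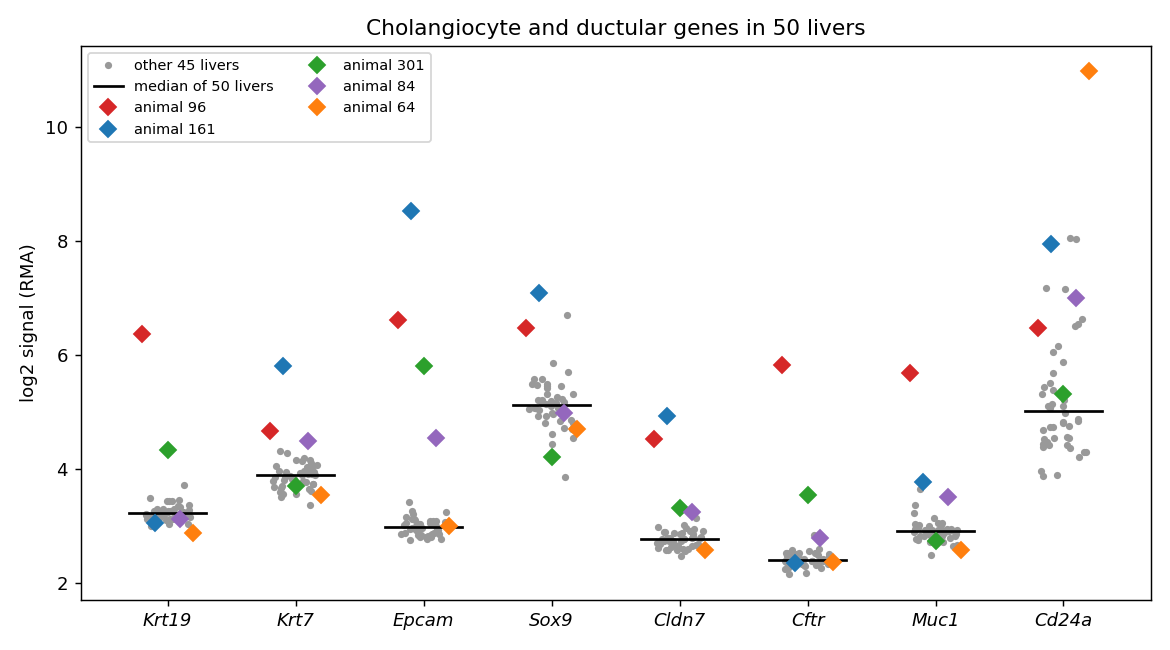
Log2 signal (vertical axis) of the 8 genes in 50 livers; each grey point is 1 liver, the black bar is the median of 50 livers, and diamonds mark animals 96, 161, 301, 84 and 64. Epcam reached 8.53 in animal 161, Krt19 6.36 in animal 96 and Cd24a 10.98 in animal 64. Most grey points lie close to the median except for Cd24a and, less so, Sox9.

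Without animals 96 and 161 the spread shrank for most of the set. The SD of Epcam was 0.49 over 48 livers, against 1.03 over all 50, and that of Cftr was 0.21 against 0.52. Krt19 went the same way, at 0.22 against 0.49, as did Cldn7, at 0.18 against 0.42, and Muc1, at 0.21 against 0.46. The median SD over all named genes was 0.21 in either set. Krt19, Cldn7, Cftr and Muc1 lay close to it once both animals were left out. The levels of these genes were below the median level of named genes, however. Over all genes below that level the median SD was 0.15 over 48 livers, and Krt19, Cldn7, Cftr and Muc1 each lay above it. The change was smaller for Krt7 (0.23 against 0.37) and Sox9 (0.44 against 0.55), and Cd24a kept an SD of 1.32 against 1.35. Leaving out animals 84 and 301 as well, a choice made after the values were seen, brought the SD of Epcam to 0.15 over 46 livers. Krt19, Cldn7 and Cftr were then at 0.1464, 0.1420 and 0.1195, below the 0.1526 of genes under the median level. Muc1, at 0.1909, stayed above it. Medians moved far less: that of Epcam was 2.96 over 46 livers and 2.98 over 50.

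Animal 96 had 7 of the 8 genes more than 1 unit above the median of 50 livers; Krt7 was 0.78 above it. Krt19 was 3.14, Cftr 3.42, Epcam 3.62 and Muc1 2.77 above. In the same liver all 13 measured pancreatic acinar markers were more than 1 unit above the median: Cpb1 (a carboxypeptidase) stood at 11.74, Cpa1 at 12.17 and Cel (a lipase) at 11.56, against at most 9.88, 9.75 and 9.61 in the 45 livers other than animals 64, 84, 96, 161 and 301. The summed acinar signal was 14.85 in animal 96 and 6.74 to 12.78 in those 45 livers, on the log2 scale. Of 7 intestinal markers 4 were also raised, among them Alpi at 9.92 and Sis at 8.43, enzymes of the brush border, while Cdx1, Cdx2 and Lgr5 were not. Tff2, a trefoil peptide of stomach and duodenal glands, reached 11.41, against at most 5.58 in those 45 livers. The part of these tissues in the levels of animal 96 was not tested.

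Animal 161 showed another combination. Epcam was 5.55, Cldn7 2.16, Sox9 1.96, Krt7 1.91 and Cd24a 2.93 above the median, whereas Krt19 stood at 3.04 and Cftr at 2.35, both just below their medians. Of 12 mammary epithelial markers 8 were more than 1 unit above the median, led by the caseins Csn2 at 12.05, Csn3 at 11.07 and Csn1s2a at 10.51, against at most 3.15, 3.99 and 3.27 in the 45 livers. The milk protein gene Lalba was at 9.09 and Elf5, a transcription factor of milk-secreting cells, at 6.24, while Wap at 3.51 and Krt14 at 2.83 were not raised. The summed mammary signal was 13.14 in animal 161 and 6.24 to 6.70 in the 45 livers. Erbb2, the mouse counterpart of the transgene, was 9.65 in animal 161, and animal 84 followed at 5.36, with a median of 3.49 over all livers. Acinar markers were raised in 0 of 13 cases and intestinal markers in 0 of 7. Neutrophil markers were raised in 6 of 7 and proliferation markers in 3 of 5. The part of mammary tissue in the levels of animal 161 was not tested.

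Animal 301 had 3 of the 8 genes more than 1 unit above the median, Epcam by 2.83, Cftr by 1.14 and Krt19 by 1.11, while Sox9 was 0.92 below it. Its liver shared 4 of 7 raised intestinal markers with animal 96, with Alpi at 9.10, Sis at 7.79 and Vil1 (villin) at 6.25, and 10 of 13 acinar markers, led by Reg1 at 9.96. The summed intestinal signal was 10.86 in animal 301 and 6.83 to 9.29 in the 45 livers, whereas its summed acinar signal of 10.56 lay inside their 6.74 to 12.78. Animals 149 and 170 had a higher mean acinar signal (8.27 and 6.96) than animal 301 (5.24), with Epcam at 3.26 and 3.12 and Cftr at 2.50 and 2.30.

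Animal 84 had Epcam 1.56 and Cd24a 1.98 above the median, and Krt7, Cldn7, Cftr and Muc1 between 0.38 and 0.61 above it, with Krt19 and Sox9 just below. A list of kidney markers, added after its values were seen, was raised in 12 of 13 cases: Umod (uromodulin) was 10.46, Lrp2 (megalin) 10.02 and Kap 9.41, against at most 4.58, 6.32 and 2.86 in the 45 livers. Bicc1 at 7.61 and Pkhd1 at 6.67, genes of cystic disease that serve both bile ducts and kidney tubules, were highest in this liver. The part of gut, pancreas and kidney in the levels of animals 301 and 84 was not tested.

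**Figure D2:**
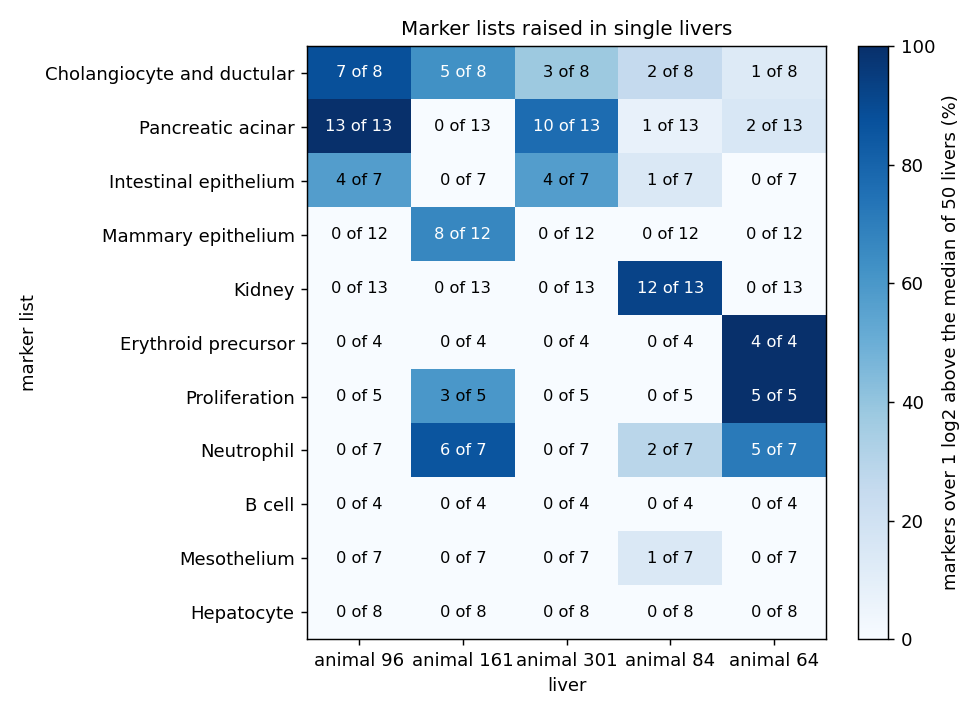
Number of measured markers of each list (rows) that were more than 1 log2 unit above the median of 50 livers in each of 5 livers (columns); colour gives the same number as a percentage of the list. Animal 96 had 13 of 13 pancreatic acinar markers raised, animal 161 8 of 12 mammary markers, animal 301 10 of 13 acinar and 4 of 7 intestinal markers, animal 84 12 of 13 kidney markers and animal 64 4 of 4 erythroid and 5 of 5 proliferation markers.

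Whether the genes rose and fell together from liver to liver was asked for each of the 28 pairs. Each gene served in turn as the covariate of a limma fit of all other named genes, with Benjamini-Hochberg adjustment over those 22179 genes. A pair was called when it passed 0.05 in both directions. Over 50 livers 17 of 28 pairs were called, all positive, where 4.42% of all genes passed in the 8 fits together and 2.01% when the fit on Cd24a was left aside. Over 48 livers without animals 96 and 161, 5 of 28 were called (2.99% and 0.488% of all genes). Over 46 livers, without animals 84 and 301 also, limma called 0 of 28 (2.64% and 0.161%), with 7 pairs at an unadjusted p under 0.05 in both fits. At that unadjusted threshold the fits over 46 livers passed from 3.72% of all genes (Epcam) to 16.97% (Krt19) and 30.13% (Cd24a). The median Pearson r of the pairs was 0.485 over 50 livers, 0.059 over 48 and 0.086 over 46, and the median Spearman rho was 0.117, 0.080 and 0.053.

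The strongest pair over 50 livers was Krt19 with Cftr, at r = 0.934 (permutation p = 0.00012, 100000 two-sided permutations, as for all permutation p-values here; limma adjusted p = 5.29e-20). Its rho was 0.245 (p = 0.0872), and r was 0.099 (p = 0.499) without animals 96 and 301, the 2 livers farthest from the median of Krt19. Epcam with Cldn7 had r = 0.910 (p = 1e-05, the smallest these permutations can give; limma adjusted p = 4.98e-17) and rho = 0.164 (p = 0.256). Its r was 0.553 (p = 0.00065) without animals 96 and 161 and -0.063 over the 46 livers. Both pairs thus rested on the few livers named above. Over the 46 livers rho was 0.177 (p = 0.236) for Krt19 with Cftr and -0.074 (p = 0.625) for Epcam with Cldn7.

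Within the 4 stretches of animal numbers described in earlier work on these data (7 to 79, 84 to 128, 137 to 235 and 253 to 301, with 8, 13, 16 and 13 livers), the r of Krt19 and Cftr was 0.347, 0.976, 0.304 and 0.892. The second stretch holds animals 84 and 96, the third animal 161 and the fourth animal 301. For Epcam and Cldn7 the values were -0.480, 0.947, 0.966 and 0.791. The first stretch, with 8 livers and none of these 4 animals, gave the only negative value for Epcam and Cldn7. For Krt19 and Cftr its 0.347 was close to the 0.304 of the third stretch, so that pair does not set it apart.

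The 5 pairs called over 48 livers all joined Krt19, Epcam, Cldn7 and Cftr. They were Epcam with Cftr (r = 0.788), Cldn7 with Cftr (0.660), Krt19 with Cftr (0.619), Krt19 with Epcam (0.595) and Epcam with Cldn7 (0.553), with permutation p-values of r from 1e-05 to 0.0143. Their rho ran from 0.055 for Epcam with Cldn7 (p = 0.710) to 0.375 for Cldn7 with Cftr (p = 0.00929). Without the 2 livers farthest from the median of the first gene, r was 0.076, 0.443, 0.085, 0.00094 and -0.063 in the same order. Without animal 301 as well, limma called 0 of the 28 pairs, with 7 at an unadjusted p under 0.05 in both fits. The share of all genes at that unadjusted threshold is not given for these 47 livers. For Krt19 and Epcam r was -0.064 over the same livers. Cldn7 with Cftr kept r = 0.443 over 46 livers (p = 0.00194, limma adjusted p = 0.510), which was 0.294 without animal 179.

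Pairs that held their rank order in all 3 sets were of moderate size. The sets are nested, since the same 46 livers are in each, so they are not repeats of one another. Cldn7 with Muc1 had rho = 0.464 over 50 livers, 0.394 over 48 and 0.429 over 46 (p = 0.00064, 0.00619 and 0.00294). Krt7 with Sox9 had rho = 0.420, 0.346 and 0.353 (p = 0.00241, 0.0167 and 0.0167), and Krt19 with Cldn7 had 0.333, 0.364 and 0.379 (p = 0.0182, 0.0113 and 0.0101). Over 46 livers the r of these 3 pairs was 0.371, 0.293 and 0.318 (p = 0.0107, 0.0480 and 0.0318). These p-values are not adjusted for the 28 pairs, and the limma adjusted p of the 3 pairs over 46 livers ran from 0.319 to 0.991. Many other genes reached a limma unadjusted p under 0.05 over 46 livers. Their share of all genes was 16.97% with Krt19, 13.95% with Cldn7, 11.59% with Sox9, 10.76% with Muc1 and 4.01% with Krt7. Cd24a entered no called pair, and over 46 livers its r with Cldn7 was -0.335 (p = 0.0224, limma adjusted p = 0.260).

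**Figure D3:**
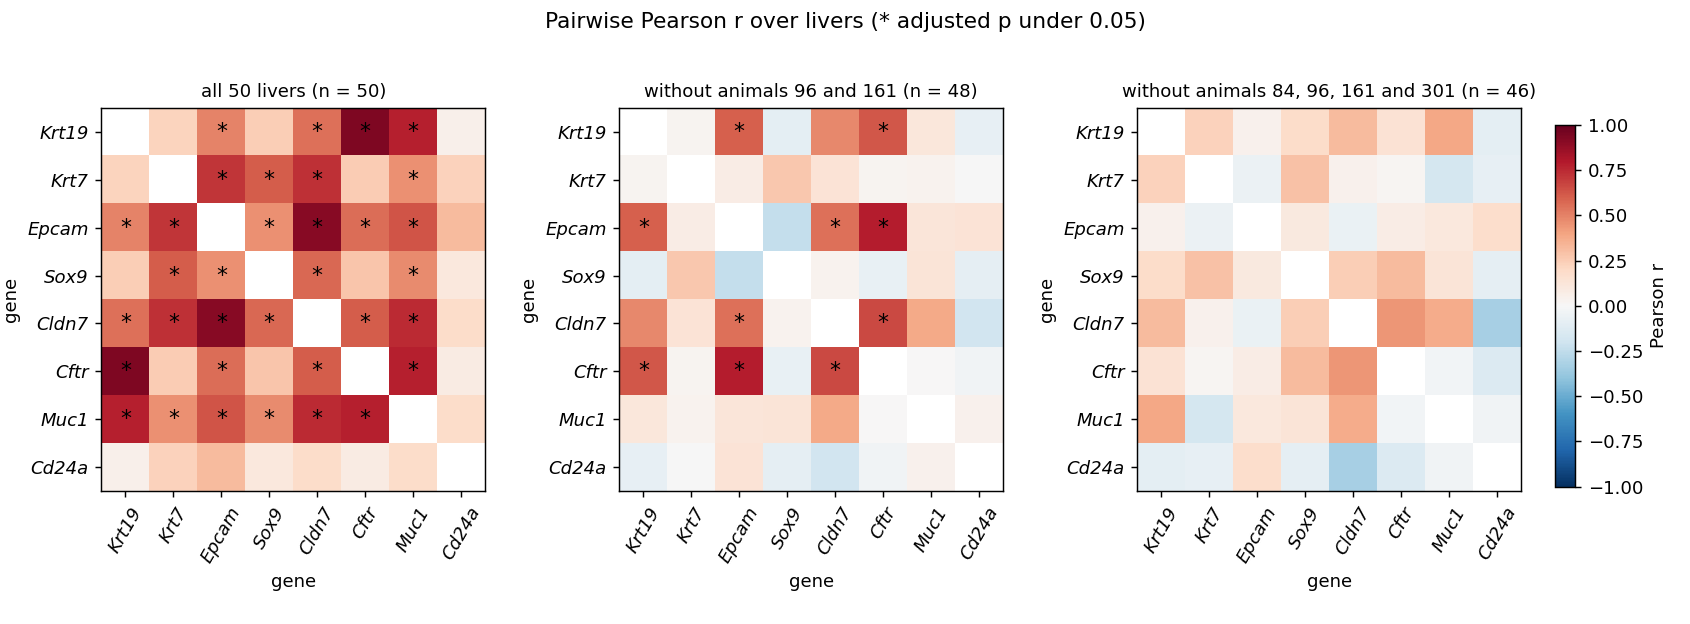
Pearson r of each pair of genes over 50, 48 and 46 livers (left to right), from -1 in blue to 1 in red, with a star where the limma adjusted p was under 0.05 in both directions. 17 of 28 pairs carry a star over 50 livers, 5 over 48 and 0 over 46.

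**Figure D4:**
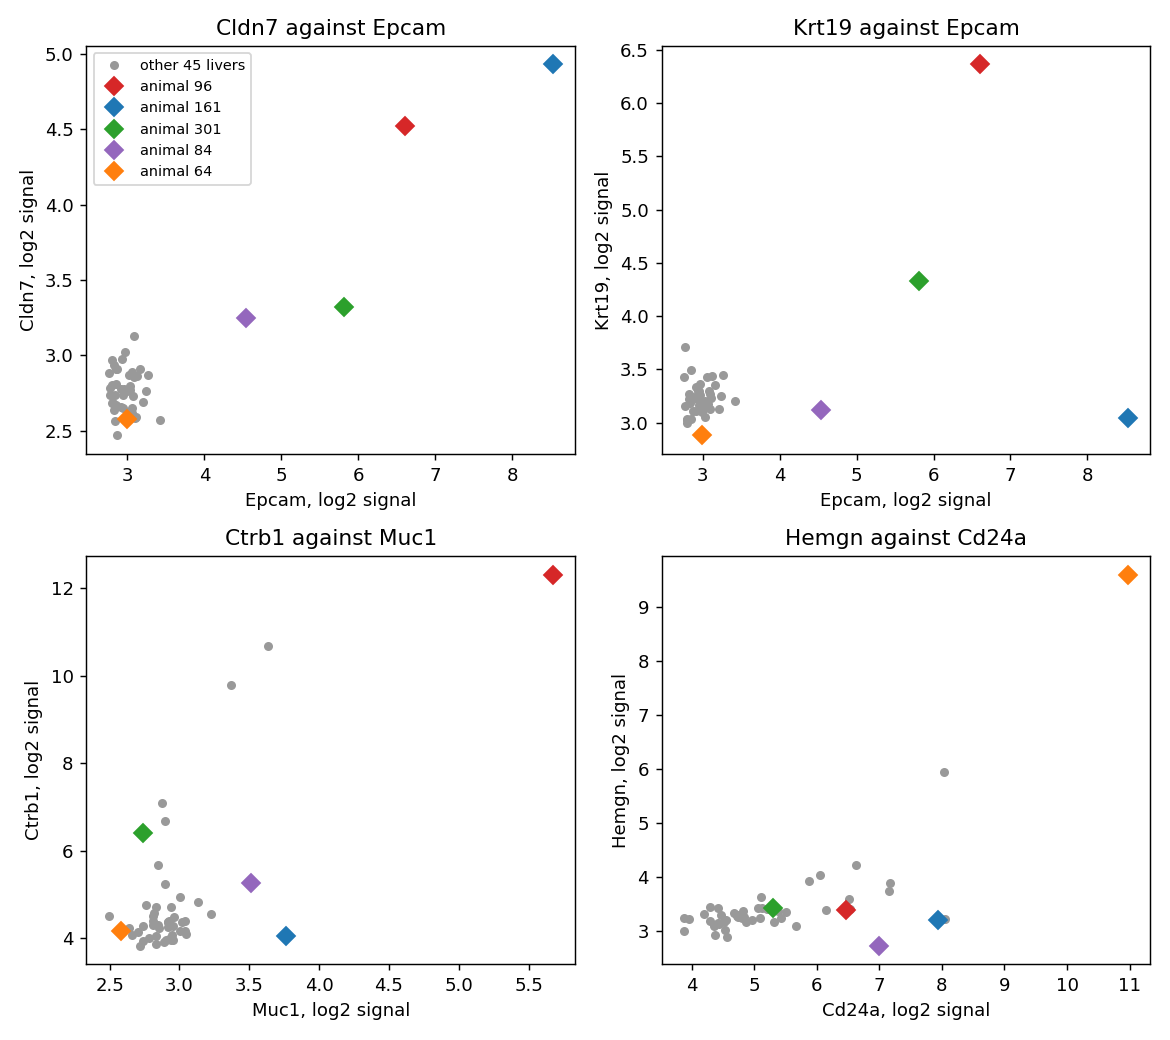
Log2 signals of Cldn7 and Krt19 against Epcam (upper panels), Ctrb1 against Muc1 and Hemgn against Cd24a (lower panels), with 1 point per liver and diamonds for animals 96, 161, 301, 84 and 64. Animal 161 is highest for Epcam at 8.53 but low for Krt19 at 3.04, and the 2 grey points at high Ctrb1 are animals 149 and 170.

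Other genes of bile ducts were counted in the same fits. With Epcam over 50 livers, 6 of 19 structural and junction genes were higher, 5 of 19 transport genes, 5 of 11 transcription factors, 2 of 11 Notch genes, 2 of 17 ductular signals, 1 of 10 YAP target and pathway genes and 0 of 8 cilia and polycystic genes, against 2.73% of all genes. Over 48 livers the counts were 3, 3, 2, 0, 0, 0 and 0 (0.83% of all genes), and the last 4 lists then had 1, 3, 0 and 4 genes at an unadjusted p under 0.05. At that unadjusted threshold 5.96% of all genes passed with Epcam over 48 livers. The median r with Epcam over 50 livers was 0.347 for the structural genes and 0.219 for the ductular signals, beside -0.025 over all genes, and over 48 livers it was 0.117 and 0.011, beside -0.016. Over 46 livers no gene of the table passed with Epcam; 826 genes had an unadjusted p under 0.05.

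Of the structural genes, Vil1, the villin of microvilli, was closest to Epcam over 48 livers (r = 0.947), and 0.213 over 46. Slc5a1, a sodium-glucose transporter, followed at 0.859 and 0.178. Both were highest in animals 96 and 301, Slc5a1 at 6.21 and 6.19, against at most 3.45 in the 45 livers. Ehf, an epithelial transcription factor, had r = 0.918 with Epcam over 50 livers, 0.609 over 48 and 0.372 over 46, and stood at 6.23 in animal 161. Hey1, a Notch target, was 8.42 in animal 161 and at most 4.40 in the 45 livers, and Ano1, a calcium-gated chloride channel, 8.76 against at most 3.93. The gene with the largest SD among the ductular signals was Lcn2, at 1.31, and its r with Epcam was 0.22 over 50 livers and -0.04 over 48. Vil1 is also on the intestinal list and Lcn2 on the neutrophil list, so the counts of these lists share genes.

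The genes most like each member over 48 livers, among those at or above the median level, show the same dependence on few livers for Krt19, Epcam and Cftr. Tm4sf5, a tetraspanin-like membrane protein, had r = 0.750 with Krt19, 0.782 with Epcam and 0.729 with Cftr, and Ada, adenosine deaminase, had 0.710, 0.710 and 0.669. Over 46 livers these values were 0.203, 0.329 and 0.053 for Tm4sf5, and 0.162, 0.116 and 0.0084 for Ada. Slc26a6, an anion exchanger, had 0.704 with Krt19 and 0.664 with Cftr, and Pls1, a plastin of microvilli, had 0.812 with Epcam. Krt7 was nearest to Flywch1, a zinc-finger gene (r = 0.649, limma adjusted p = 0.0272), which was the only gene that passed with Krt7 over 48 livers (0.00451% of all genes), then Kctd17 (0.522) and Castor2 (0.486), which did not pass (adjusted p = 0.512 and 0.569). Flywch1 did not pass over 50 livers (r = 0.438, limma adjusted p = 0.0721) or over 46 (0.578 and 0.526). Cldn7 was nearest to Itga3, an integrin subunit (0.620), Lmo7 (0.583) and Nat8f4 (0.567), each with r above 0.4 over 46 livers but with limma adjusted p of 0.196 to 0.210.

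Muc1 went with pancreatic acinar genes. Over 50 livers 13 of 13 acinar markers were higher with Muc1 (1.45% of all genes), over 48 livers 9 of 13 (0.203%) and over 46 livers 12 of 13 (0.171%). Ctrb1, chymotrypsinogen B, had r = 0.720, 0.571 and 0.645 in these sets, the last with a limma adjusted p of 0.000679. Ranks did not follow: the median rho of the 13 markers with Muc1 was 0.118 over 46 livers, beside a median r of 0.631. Animals 149 and 170 had the highest Muc1 of the 46 livers, at 3.64 and 3.37, and also the highest mean acinar signal, at 8.27 and 6.96, against a median of 3.05 in the 45 livers. Without them limma called 0 of 13 markers and 0 of 22179 genes; 2 markers and 2816 genes had an unadjusted p under 0.05. By the rule for the most alike genes, Muc1 was nearest to Derl3 (r = 0.650 over 48 livers), a factor of protein quality control in the endoplasmic reticulum, Try4, a trypsinogen (0.627), and Igfbp5 (0.596). Over 50 livers their r was 0.317, 0.816 and 0.390, and only Try4 passed (limma adjusted p = 0.366, 4.82e-11 and 0.1425). Over 46 livers r was 0.539, 0.707 and 0.464, and Igfbp5 did not pass (limma adjusted p = 0.0359, 0.000215 and 0.182).

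Acinar markers also went with Krt19 and Cftr, in 13 of 13 cases each over 50 livers (1.6% and 1.56% of all genes), in 2 of 13 each over 48 (0.496% and 0.582%) and in none over 46, where limma called 0 of 22179 genes with either gene and 6 and 0 of the 13 markers, and 3763 and 1497 of all genes, had an unadjusted p under 0.05. Mammary markers went with Epcam, Krt7 and Cldn7 in 8 of 12 cases each and with Sox9 in 7 of 12 over 50 livers (2.73%, 2.14%, 2.48% and 1.27% of all genes). Over 48 livers limma called none of them, where 0.83%, 0.00451%, 0.0812% and 0.875% of all genes were higher. Then 0, 0, 1 and 0 of the 12 markers had an unadjusted p under 0.05, as had 5.96%, 6.35%, 11.52% and 12.09% of all genes. Intestinal markers went with Krt19, Epcam and Cftr in 3 of 7 cases each over both 50 livers (1.6%, 2.73% and 1.56% of all genes) and 48 livers (0.496%, 0.83% and 0.582%). Over 46 livers, without animals 84 and 301, limma called 0 of 7 with each of the 3 genes, with 0, 0 and 1 at an unadjusted p under 0.05. At that unadjusted threshold 16.97%, 3.72% and 6.75% of all genes passed.

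Over 46 livers, without animals 84, 96, 161 and 301, 211 of 22179 genes passed with Sox9 (0.951%), of which 161 were higher. Over 50 livers 362 genes passed (1.63%), and 90 genes were in both sets, which is 42.7% of the 211 and 24.9% of the 362. The genes most like it were Msrb3, a methionine sulfoxide reductase (r = 0.752 over 48 livers and 0.739 over 46), Slc13a3, a dicarboxylate transporter (0.705 and 0.731), and Asap3, a regulator of small GTPases (0.677 and 0.653). Over 50 livers their r was 0.421, 0.459 and 0.457, with limma adjusted p of 0.0818, 0.0398 and 0.0480, so that Msrb3 did not pass there. Without animal 179, whose Sox9 was highest among the 46, the count fell to 55 genes (0.248%), and the 3 genes had r = 0.649, 0.644 and 0.600, with limma adjusted p of 0.00649, 0.00649 and 0.0144. Of 199 other genes of the duct and cell marker lists 4 passed over 46 livers and are named here after their values were seen: Cdh1 (E-cadherin, r = 0.606), Wwtr1 (TAZ, 0.512), Pdgfrb (0.503) and Cxcl1 (0.502). Without animal 179 their r was 0.628, 0.477, 0.478 and 0.346, and of the 4 only Cdh1 passed (limma adjusted p = 0.00649, against 0.118, 0.0997 and 0.305 for the others). In animal 179 Lcn2 was 11.71, the highest of all livers, and Cxcl1 8.88 against a median of 5.94, both products of acute inflammation. Hepatocyte markers passed with Sox9 in 0 of 8 cases by limma over 46 livers, where 1 of 8 had an unadjusted p under 0.05 (11.59% of all genes).

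Cd24a stood apart from the duct genes and went with erythroid, neutrophil and proliferation genes. Its fit called 21.3% of all genes over 50 livers, 20.5% over 48 and 20% over 46. Over 50 livers 4 of 4 erythroid markers, 5 of 5 proliferation markers and 7 of 7 neutrophil markers were higher with it (11.1% of all genes), and 6 of 8 hepatocyte markers were lower (10.2%). Over 48 livers the counts were 4, 5, 6 and 6 (10.9% and 9.53%), as they were over 46 (10.5% and 9.53%). Ranks of the hepatocyte markers did not follow. Their median rho with Cd24a was -0.050 over 50 livers, -0.008 over 48 and 0.039 over 46, beside a median r of -0.456, -0.474 and -0.521. Of 4 B cell markers limma called 0 over 50 and 48 livers and 1 over 46, with 2, 3 and 3 at an unadjusted p under 0.05. At that unadjusted threshold 31.42%, 30.53% and 30.13% of all genes passed with Cd24a in these sets. Mki67, a nuclear protein of dividing cells, had r = 0.812 over 50 livers, and Hemgn, a nuclear protein of erythroid precursors, had 0.712 (limma adjusted p = 1.13e-09 and 2.92e-07). The most alike genes over 48 livers were Slc4a1, the anion exchanger of red cells (r = 0.845), Isg20, an exonuclease (0.844), and Car2, a carbonic anhydrase (0.836).

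Animal 64 was at the top of these relations. Its Cd24a was 10.98, Hemgn 9.61, Klf1 8.32 and Mki67 11.13, against at most 5.95, 3.64 and 8.82 for the last 3 genes in the 45 livers, and its summed hepatocyte signal of 14.38 was below the 14.78 to 15.53 of those livers. Its mean over the 8 hepatocyte markers was 10.41, against 11.05 to 12.31 in those livers. The 7 duct genes other than Cd24a were between 0.43 below and 0.01 above their medians in animal 64. Without it, over 45 livers, 6.38% of all genes passed with Cd24a, and 2 of 4 erythroid, 4 of 5 proliferation, 6 of 7 neutrophil and 4 of 4 B cell markers were higher (3.58%), while 1 of 8 hepatocyte markers was lower (2.8%). Slc4a1 kept r = 0.808 and rho = 0.835, Mki67 0.762 and 0.661, and Klf1 had 0.098 and 0.044. In animal 10, with Cd24a at 8.05, 4 of 4 B cell markers were raised, with Ms4a1 (CD20) at 8.45 against a median of 3.51, as were 6 of 7 neutrophil, 4 of 7 lipid-associated macrophage and 3 of 5 proliferation markers; of the erythroid markers 0 of 4 were. In animal 257, with Cd24a at 8.03, 2 of 4 erythroid markers were raised, with Hemgn at 5.95, and 3 of 7 neutrophil and 2 of 5 proliferation markers. A second probe set of Cd24a, with a median of 3.18, followed the first at r = 0.926 and rho = 0.783. The part of blood cells in the level of Cd24a was not tested.

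The animal number is the one number the labels give. Over 50 livers limma called 0 of 8 genes against it, with 0 at an unadjusted p under 0.05, while 3.52% of all genes passed and 16.3% had an unadjusted p under 0.05. On ranks over the same 50 livers Krt19 rose with the number but did not pass (limma unadjusted p = 0.00263, adjusted p = 0.0590). Over 48 livers Krt19 passed, with a slope of 0.114 ± 0.033 log2 units per 100 animal numbers (SE, adjusted p = 0.0337; 3.84% of all genes), and the other 7 genes did not. Without animals 84 and 301 also, the slope of Krt19 was 0.075 ± 0.024 (limma unadjusted p = 0.00328, adjusted p = 0.0689, 3.85% of all genes).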

How the data were processed

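Total RNA of 50 livers was hybridised to 1 whole-transcript array each, from 100 ng of RNA per the labels' protocols. Expression Console 1.4.1 by Affymetrix and the RMA method are named in the submitters' processing notes, and the table the authors deposited holds log2 values on that scale. RMA equalises the distribution of signals between arrays (array medians 3.27 to 3.34), so differences in total RNA are removed, and signals of different probe sets are no amounts. Of 41345 probe sets 23521 carried 1 symbol in the platform annotation, 1814 several and 16010 none; only those with 1 were used. No genome or sequence was used. The number of arrays limits the precision.

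Fits used limma 3.58.1 in R 4.3.3 (lmFit, eBayes with trend, two-sided, Benjamini-Hochberg over all genes), tested on simulated data; permutations used numpy 2.4.6. Mice are separate animals by their numbers. The genes and lists were chosen with earlier results of these data known. The text names all members, the 3 genes with the highest r with each over 48 livers, up to 4 genes of each biliary list by r with Epcam and the one with the largest SD (some only counted here), the markers farthest above the median in animals 96 and 161, and Erbb2; markers given for animals 10, 64, 84, 179, 257 and 301 were named after their values were seen. Of 104 listed biliary genes 95 were measured, and of 120 markers of 16 other cell types 106. Leaving out animals 64, 84, 149, 170, 179 and 301 and the kidney list were chosen after seeing the data. Alternatives were the livers left out, the mean of probe sets, a filter on level, centring, ranks, the first principal component and the stretches as a block.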

Additional observations from a re-analysis of the deposited data

How the results depend on the processing

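The 17 called pairs of 28 became 8 without animal 96, 10 without animal 161 and 5 without both, and 0 on ranks; the filter on level left 3 pairs, of which 1 was called. Without animals 96, 161 and 301, without animal 84 also and without animal 64 also, choices added after seeing the data, the count was 0 each time; leaving out animals 64, 84, 87 and 235, the mean of probe sets, centring, the first component and the block gave 14 to 17. Calls of other biliary genes (115 of 760 gene and member fits) became 44 without animals 96 and 161, 31 of 180 with the filter, 8 on ranks, and 50, 27 and 15 in the 3 added sets. Calls of other cell markers (137 of 848) became 58 without animals 96 and 161, 90 without animal 96, 25 of 150 with the filter, 15 on ranks, and 51, 48 and 42 in the added sets. Against animal number 1 of 8 genes was called without animal 96, with or without animal 161, and 0 over all livers. Some r values of called pairs turned negative. Without animals 84, 96, 161 and 301, and without animal 64 also, this held for Krt7 and Epcam (-0.060 and -0.057), Krt7 and Muc1 (-0.173 and -0.244), Epcam and Cldn7 (-0.063 and -0.060) and Cftr and Muc1 (-0.024 and -0.038). It held for Krt7 and Cldn7 in the smaller set only (-0.0012), for Krt19 and Epcam without animals 96, 161 and 301 (-0.064), and for Epcam and Sox9 without animals 96 and 161 (-0.240). On ranks Krt7 and Muc1 had -0.026 and Cftr and Muc1 -0.044, and the last pair -0.028 without animal 96. The filter on level leaves fewer pairs and fits by construction. The part of fewer livers in the other shifts was not tested, and neither were other causes. No paired analysis was possible because all livers form 1 group. Signals of 5 of the 8 genes lay below the median level of named genes, which limits what small differences show.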
